A study of Mus musculus with 4 samples.

Results

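The genes described here encode G protein-coupled receptors other than the chemokine receptors. They were chosen by gene symbol alone, as the protease-activated (F2r), adhesion (Adgr), lysophospholipid (Lpar, S1pr), nucleotide (P2ry), adenosine (Adora), chemoattractant and lipid inflammatory (Fpr, C5ar, C3ar, Ltb4r, Ptafr), prostaglandin E (Ptger), metabolite (Hcar, Ffar), adrenergic (Adrb) and numbered Gpr and Gprc symbols. In all, 126 of the 18193 genes read by a probe set with 1 symbol had such a name, and 198 probe sets measured them. Of the 126 genes, 69 were bright enough to be tested and 57 were not. The rule itself reads symbols and no expression difference, though the members were chosen with earlier results of these data known. Each gene was read from its brightest probe set.

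G protein-coupled receptors cross the membrane 7 times and, when a ligand binds outside, switch on a trimeric G protein inside the cell. The alpha subunit decides the next step: Gs raises and Gi lowers cyclic AMP, and Gq releases calcium through phospholipase C. In blood cells these receptors read tissue damage, complement, bacterial peptides, nucleotides from dying cells and lipid gradients, and mature neutrophils and monocytes depend on them to find sites of infection. The adhesion receptors differ in build, with a long extracellular part that is cut from the membrane-spanning part and rests on it.

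The study used 4 single-colour arrays. The 2 MN1 leukemic samples were bone marrow of mice with a leukemia started by the oncogene MN1, delivered by retrovirus. C57BL/6J donors received 150 mg/kg of fluorouracil 4 days before marrow was taken, and the cells were kept for 48 h with human IL-6 (10 ng/ml), mouse IL-3 (6 ng/ml) and mouse SCF (20 ng/ml), infected by coculture with GP+E86 producer cells, sorted for the vector's GFP and injected with helper marrow into mice given 750 cGy. The 2 Gr1/Mac1 samples were mature myeloid cells of healthy C57BL/6J marrow, positive for Gr1 and CD11b. The labels repeat the treatment text for all 4 samples, do not say whether leukemic marrow was sorted at harvest, and name no age. The series holds no normal immature cells, so a difference due to leukemia and one due to immaturity cannot be told apart. In such bulk RNA, fewer cells of a type and less RNA per cell cannot be told apart either. The gate itself favours genes of granulocytes and monocytes: Itgam, which encodes CD11b, gave a signal of 584 and 306 in leukemic marrow against 4288 and 4407 in mature cells.

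Signals are linear MAS5 intensities, each array scaled to the same trimmed mean of 500, and are set side by side only for 1 probe set. Each difference is a log2 value, log2(signal + 16), leukemic minus mature, with its SE, and was tested with limma over 12378 genes; "passed" means a Benjamini-Hochberg adjusted p under 0.05. With 2 arrays against 2, an exact two-sided permutation test could not give a p below 0.33, so none was used.

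The arrays themselves differed between the groups. The ratio of 3′ to 5′ signal, a measure of RNA integrity, was 3.28 and 3.09 for beta-actin in leukemic marrow against 1.32 and 1.39 in mature cells. The spiked hybridization controls had a geometric mean of 11918 and 8950 in leukemic marrow against 4044 and 4168 in mature cells. Their part in the results was not tested beyond a scaling to these controls. That scaling used a common factor for the arrays of each group and left gaps within a group as they were. It moved the median difference of all genes from 0.28 to -1.02. Of the marker genes of other cells, 9 of 9 tested stem and progenitor genes were higher in leukemic marrow. So were 7 of 7 tested mast cell and basophil genes and 4 of 5 tested erythroid genes. Kit and Gata2 are on both the stem and progenitor list and the mast cell and basophil list. Of the neutrophil markers 4 of 9 were lower, with summed signals of 398087 and 233748 in leukemic marrow against 394504 and 313449 in mature cells. None of the 5 tested B cell, 4 eosinophil or 3 endothelial and stromal markers passed, and 1 of 3 T and NK cell markers (Cd3d) was lower.

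Receptor genes moved in both directions. Of the 69 tested, 20 were higher in leukemic marrow, 25 were lower and 24 did not pass. Thus 65.2% of the tested receptor genes passed, beside 43.4% of all genes tested. Separately by direction, 27.5% of all genes were higher and 15.9% were lower, beside 20 and 25 of the 69 receptor genes. The higher share of the receptor genes was thus near that of all genes. On the deposited scale, the excess of passed receptor genes lay mostly among the lower ones. Of the passed receptor genes 44.4% were higher, beside 63.3% of all passed genes. A passed difference of at least 2 in size was seen in 26 receptor genes, 13 higher and 13 lower, or 37.7% of those tested beside 17.6% of all genes. The median size of the difference was 1.67 for the receptor genes and 0.85 for all genes, while the signed median was -0.18 against 0.28. Under scaling to the hybridization controls the split turned to 12 higher and 36 lower of 73 tested. In that setting 25% of the passed receptor genes were higher in place of 44.4%. The share over all passed genes moved further, from 63.3% higher to 14.4%, and 57.5% of all genes passed. Thus under this scaling the lower share of the receptor genes was near that of all genes. Their higher share was above that of all genes, so the excess changed sides. There 14 lower genes moved further down by over 1.5 times, to differences of -3.61 to -2.22. Quantile normalization and equal medians each gave 18 higher and 27 lower of 73. That is 40% of the passed receptor genes higher, beside 57.2% and 49.4% of all passed genes. With no filter 19 receptor genes were higher and 24 lower of 126, while 27.1% of all 18193 genes passed. The passed share of the receptor genes then lay closer to that of all genes. Leaving out either leukemic replicate lowered the number of passed genes, both among the receptor genes and among all genes.

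Many of these receptors were dim in 1 group. The mature mean lay under 47.65, the lowest mean signal kept for testing, in 8 of the 20 higher genes (Adgrg1, Adgrg2, Adgrd1, Adgra3, Ptger3, Gpr174, Lpar1 and Gpr34), and the leukemic mean did in 2 of the 25 lower genes (P2ry12 and S1pr5). The filter read the mean over all 4 arrays, so these genes were tested only through the group where they were bright. For these the size of the difference depends on the pseudocount. In 5 of them it moved by over 1.5 times: with pseudocounts of 1 and 64, Adgra3 was at 4.39 and 1.94, Gpr34 at 2.20 and 1.16, and Lpar1 at 3.10 and 1.51. P2ry12 was at -3.50 and -1.47, and S1pr5 at -3.43 and -1.47. All 5 passed under both pseudocounts.

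**Figure D1:**
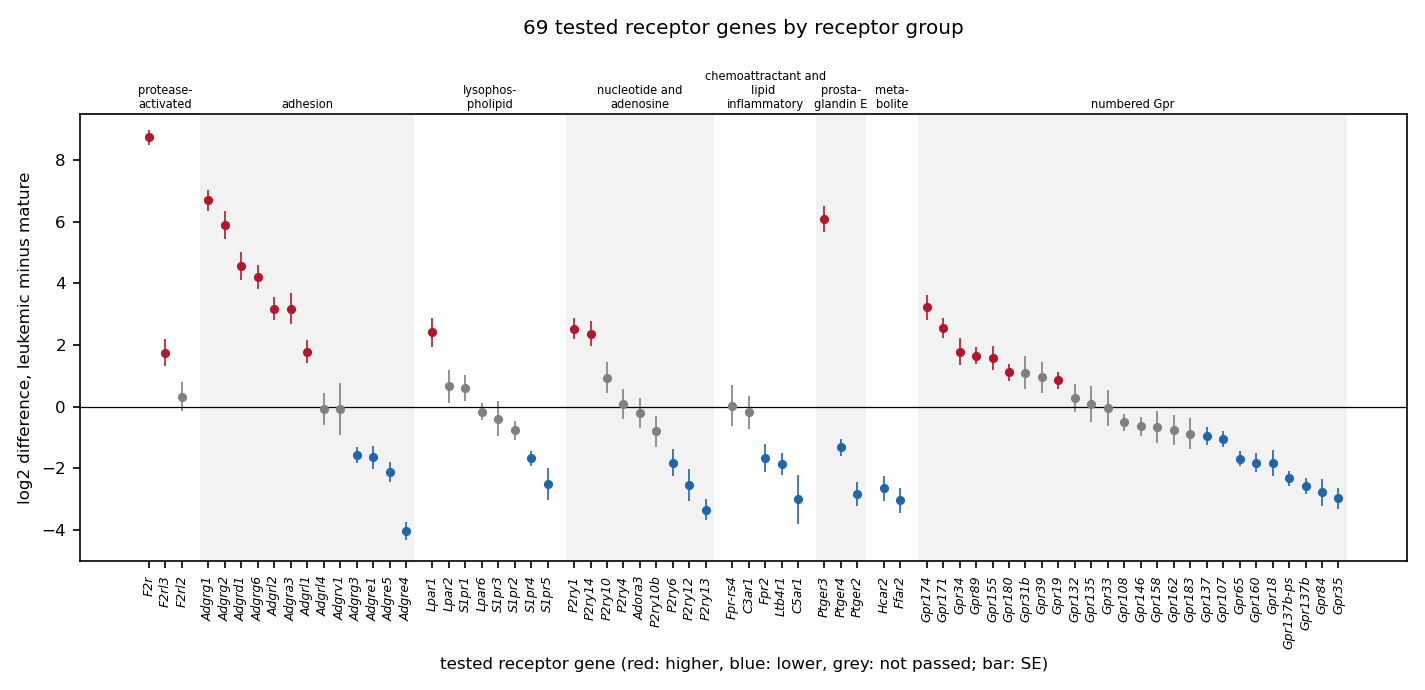
Log2 difference (leukemic minus mature, y axis) of each of the 69 tested receptor genes, grouped by receptor type along the x axis; points are limma estimates from 2 arrays against 2 and bars are the SE. Red genes passed higher, blue passed lower and grey did not pass; F2r stands highest at 8.73 and Adgre4 lowest at -4.03.

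The protease-activated receptors are switched on when a protease cuts their own outer end, which then acts as a tethered ligand. F2r, the principal thrombin receptor, rose more than any other receptor gene. Its signal was 30226 and 35898 in leukemic marrow against 58.4 and 64.5 in mature cells. Both leukemic arrays stood far above both mature arrays, with a log2 difference of 8.73 (SE 0.23, adjusted p = 3.6e-05). Its other probe set gave 8.25. F2rl3, another thrombin receptor, gave 244 and 164 against 42.6 and 54.5, a difference of 1.75 (SE 0.43, adjusted p = 0.016). That call was less steady: without leukemic replicate 1 the difference was 1.48, without leukemic replicate 2 it was 2.01 and under hybridization-control scaling 0.62, and none of these passed (adjusted p 0.01 to 0.25 over 15 alternatives). F2rl2, which in mouse platelets serves as a cofactor for F2rl3, gave 120 and 130 against 64.9 and 141, and its groups overlapped (0.32, SE 0.47, adjusted p = 0.62). In the same arrays, 3 of 8 tested megakaryocyte and platelet markers were higher, with summed signals of 4343 and 4306 against 1016 and 1000. The 3 were Gp5 (4.23), Vwf (3.23, and 2.77 without leukemic replicate 2, which did not pass) and Itga2b (3.05), and the 5 that did not pass were Gp6 (1.17), Gp9 (0.98), Pf4 (0.81), Gp1bb (0.09) and Ppbp (-0.90). As given above, 9 of 9 tested stem and progenitor, 7 of 7 mast cell and basophil and 4 of 5 erythroid markers were higher too. The part of any of these cells in the F2r signal was not tested.

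The RefSeq promoter of F2r (build GRCm38.p6, minus strand, chr13:95618467-95618716, the 250 bases before the gene start) is shown because F2r carried the largest difference. It is 70.8% G and C and holds 24 CpG pairs. The capitals mark the 1 match to the searched motifs, the RUNX motif TGTGGT on the opposite strand, starting 178 bases before the gene start.
F2r: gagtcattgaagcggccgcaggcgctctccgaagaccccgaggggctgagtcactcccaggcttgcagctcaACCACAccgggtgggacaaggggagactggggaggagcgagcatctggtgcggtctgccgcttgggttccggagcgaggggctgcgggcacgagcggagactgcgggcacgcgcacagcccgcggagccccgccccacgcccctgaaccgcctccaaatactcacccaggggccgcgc
A match to a motif is a description of the letters and does not show that a factor binds.

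The adhesion receptors held 8 of the 26 passed differences of at least 2 in size. Of 22 genes 13 were tested, and 7 were higher, 4 lower and 2 not passed. Adgrg1, a receptor of blood stem cells and developing brain that binds collagen and transglutaminase, gave 3695 and 4013 in leukemic marrow against 12.98 and 32.65 in mature cells, a difference of 6.69 (SE 0.34, adjusted p = 1.1e-04). Its other probe set gave 7.36. Adgrg2, best known from the epididymis, gave 799 and 1672 against 3.06 and 4.26 (5.90, SE 0.46, adjusted p = 3.6e-04). Its other probe set was under the filter and gave 1.14. Leukemic replicate 2 was the brighter of the pair in Adgrg2 (-1.05, replicate 1 minus replicate 2, on the log2 scale), and both arrays stood above the mature ones. Adgrg6, needed in Schwann cells for myelination, gave 1497 and 3042 against 115 and 86.8 (4.21, SE 0.39, adjusted p = 5.6e-04), and a second probe set gave 4.98. Adgrd1 gave 583 and 541 against 2.82 and 16.5 (4.55, SE 0.45, adjusted p = 7.1e-04).

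Adgrl2, a latrophilin that binds teneurins and FLRT proteins at cell contacts, gave 569 and 645 in leukemic marrow against 70.1 and 38.6 in mature cells (3.18, SE 0.38, adjusted p = 0.0012), and its second kept probe set gave 3.26. Under hybridization-control scaling Adgrl2 was at 2.01 and still passed. Adgra3, an orphan of the same class, gave 193 and 253 against 15.0 and 6.03 (3.18, SE 0.50, adjusted p = 0.0029). Its other probe sets were under the filter and gave -0.41 and -0.23. The latrophilin Adgrl1 was higher by 1.78 (adjusted p = 0.008), but the call was lost without leukemic replicate 1 (1.75) or leukemic replicate 2 (1.81), with the mean of its probe sets and under hybridization-control scaling (0.58), with an adjusted p between 0.0046 and 0.21 over 16 alternatives. Its second kept probe set gave 0.96 and did not pass. Adgrl4, found on endothelium, gave 326 and 109 against 188 and 218, so that the groups overlapped (-0.07, adjusted p = 0.92). Adgrv1, a large protein of hair cells, overlapped too (-0.08, adjusted p = 0.95).

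The lower adhesion genes were the 3 Adgre genes, whose products carry EGF-like repeats and mark myeloid cells, and Adgrg3. Adgre4, found on macrophages and related cells, gave 52.5 and 67.6 in leukemic marrow against 1188 and 1256 in mature cells, the lowest difference of any tested receptor gene (-4.03, SE 0.30, adjusted p = 3.1e-04), and its second probe set gave -2.45. Adgre5, the leukocyte antigen CD97, gave 1746 and 1262 against 8437 and 4960 (-2.11, SE 0.32, adjusted p = 0.0027). Adgre1, the classic mouse macrophage antigen, gave -1.64 (adjusted p = 0.012), and the call was lost without leukemic replicate 2 (-1.15) and without mature replicate 1 (-1.40), with an adjusted p between 4.8e-04 and 0.082 over 15 alternatives. Adgrg3, a granulocyte receptor, gave 3413 and 2306 against 8945 and 7859 (-1.57, SE 0.27, adjusted p = 0.0039). Within the Adgrg branch, then, 3 genes were higher and 1 was lower, and within the Adgre branch all 3 measured genes were lower. Of the monocyte and macrophage markers 6 of 9 were lower and Mrc1 was higher, with summed signals of 8406 and 5929 in leukemic marrow against 46058 and 28546 in mature cells. Adgre1 is itself on that list, and the part of monocytes in the Adgre differences was not tested. With hybridization-control scaling 6 adhesion genes were higher and 4 lower of 14, where 57.5% of all genes passed and 14.4% of those were higher.

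**Figure D2:**
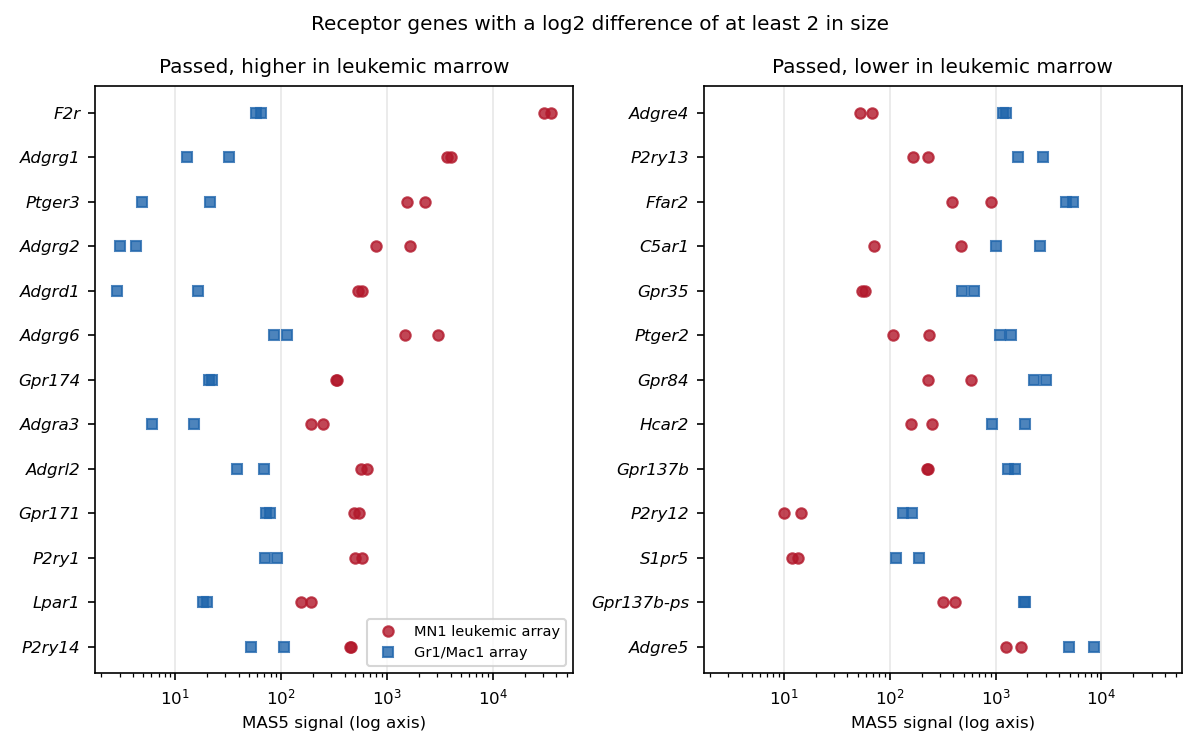
MAS5 signal of each array (log x axis) for the 26 receptor genes that passed with a log2 difference of at least 2 in size; red circles are the 2 leukemic and blue squares the 2 mature arrays. The rows were chosen by this difference, so the separation of the 2 groups in them is no result of its own. C5ar1 has the widest gap between the leukemic arrays.

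Lysophospholipid receptors read lysophosphatidic acid (Lpar) and sphingosine 1-phosphate (S1pr), which guide lymphocytes and progenitors between blood and tissue. Of 10 genes 8 were tested, with 1 higher, 2 lower and 5 not passed. Lpar1 gave 192 and 154 in leukemic marrow against 19.9 and 18.5 in mature cells (2.42, SE 0.47, adjusted p = 0.0064). This call rested on 1 of 3 kept probe sets, as the others gave 1.02 and -0.36 and did not pass. It was also lost without leukemic replicate 1 (2.27). Under hybridization-control scaling another probe set became the brightest and gave -0.08, while the probe set used here gave 1.42, with an adjusted p from 0.0046 to 0.9 over 15 alternatives. S1pr5, which NK cells and monocytes use to leave the marrow, gave 11.9 and 13.7 against 188 and 115 (-2.51, SE 0.53, adjusted p = 0.0087). Without mature replicate 1 its difference was -2.18 and just missed the threshold (adjusted p 0.0017 to 0.0508 over 15 alternatives). S1pr4, the hematopoietic member of the family, gave 2131 and 1883 against 7154 and 5736 (-1.67, SE 0.24, adjusted p = 0.0021). S1pr1, the receptor of lymphocyte egress, gave 152 and 170 against 71.8 and 137 and did not pass (0.61, adjusted p = 0.3). Lpar2 (0.66), Lpar6 (-0.16), S1pr2 (-0.76) and S1pr3 (-0.39) did not pass. Under hybridization-control scaling 0 members were higher and 4 lower, where 57.5% of all genes passed and 14.4% of those were higher.

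Receptors for nucleotides and adenosine read molecules that damaged cells release. Of 10 genes 9 were tested, with 2 higher, 3 lower and 4 not passed, and the receptors for ADP fell on both sides. P2ry1, the Gq-coupled ADP receptor, gave 505 and 583 in leukemic marrow against 93.0 and 70.2 in mature cells (2.53, SE 0.33, adjusted p = 0.0017). P2ry12, the Gi-coupled ADP receptor of platelets and microglia, gave 10.0 and 14.7 against 133 and 164 (-2.54, SE 0.51, adjusted p = 0.0072). P2ry13, another Gi-coupled ADP receptor, gave 233 and 166 against 1631 and 2811 (-3.34, SE 0.34, adjusted p = 7.7e-04). Thus the Gq-coupled ADP receptor was higher and both Gi-coupled ones lower in leukemic marrow. P2ry14, which binds UDP-glucose, gave 452 and 464 against 108 and 52.0 (2.37, SE 0.40, adjusted p = 0.0038). Under hybridization-control scaling P2ry1 was at 1.31 and P2ry14 at 1.17, and both still passed, P2ry14 narrowly (adjusted p 4.4e-04 to 0.0474 over 16 alternatives). P2ry6, a UDP receptor, was lower by a log2 difference of -1.81 (adjusted p = 0.016), a call lost without leukemic replicate 2 (-1.52) and without mature replicate 1 (-1.26), with an adjusted p of 0.0013 to 0.11 over 16 alternatives. P2ry10 (0.94), P2ry10b (-0.80), P2ry4 (0.09) and the adenosine receptor Adora3 (-0.21) did not pass. Under hybridization-control scaling 2 were higher and 5 lower of 9, where 57.5% of all genes passed and 14.4% of those were higher.

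Some of these genes lie beside each other, and the order of genes in RefSeq (GRCm38.p6), which 125 of the 126 genes matched, allowed a comparison of neighbours. With at most 2 protein-coding genes between, 20 pairs were found and both genes were tested in 12. In 3 pairs the neighbours passed in opposite directions and in 2 pairs in the same direction. A run of 4 tested genes lies on chromosome 3, in the order Gpr171, P2ry14, P2ry13, P2ry12. Gpr171 (2.54) and P2ry14 (2.37) were higher, whereas P2ry13 (-3.34) and P2ry12 (-2.54) were lower. The direction thus changed once along the run. On chromosome 8 Adgrg1 (6.69) and Adgrg3 (-1.57) are adjacent, as are Adgre5 (-2.11) and Adgrl1 (1.78). On chromosome 13 F2r (8.73) and F2rl2 (0.32, not passed) are separated by Iqgap2. On chromosome X the order is Lpar4, P2ry10, P2ry10b, Gpr174, of which Lpar4 was under the filter, P2ry10 and P2ry10b did not pass and Gpr174 (3.22) was higher. The remaining tested pairs had 1 passed gene and 1 that did not, or neither.

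**Figure D3:**
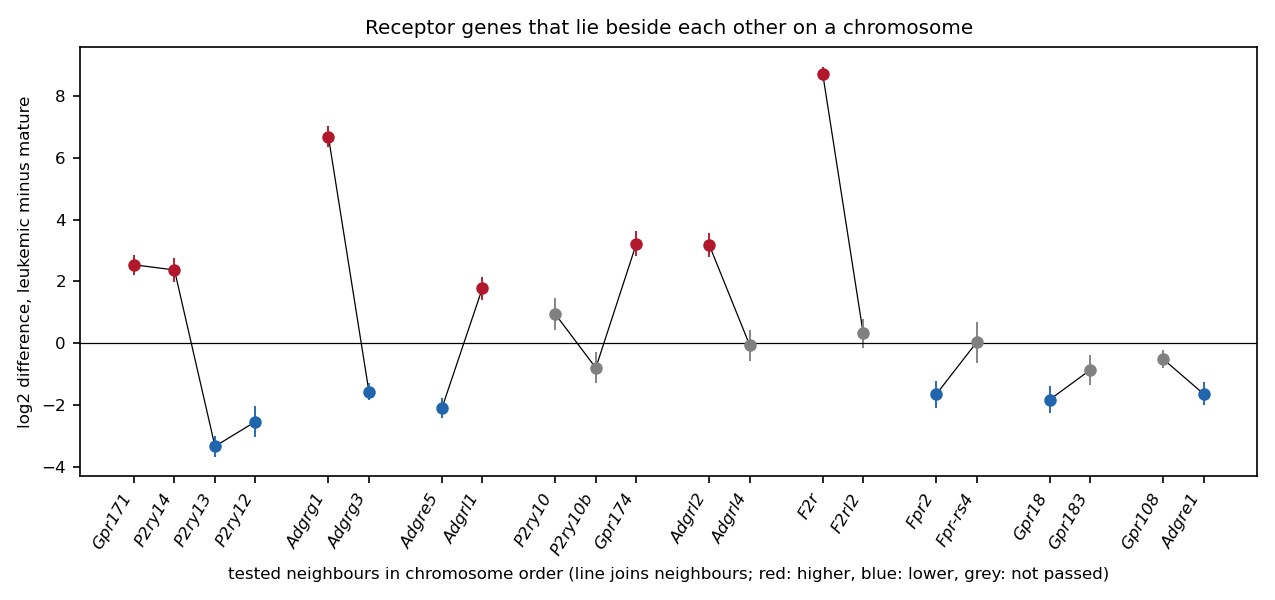
Log2 difference (leukemic minus mature, y axis) of tested receptor genes in chromosome order (x axis), with lines joining neighbours and bars for the SE; red passed higher, blue passed lower and grey did not pass. Lines that run from a red to a blue point mark P2ry14 and P2ry13, Adgrg1 and Adgrg3, and Adgre5 and Adgrl1.

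The RefSeq promoters of the 3 P2ry genes of this run are shown because they are neighbours that moved in different directions. Each is the 250 bases before a gene start on the minus strand of chromosome 3, build GRCm38.p6: P2ry14 chr3:59153493-59153742, the farthest upstream of 4 start sites, P2ry13 chr3:59210883-59211132 and P2ry12 chr3:59262986-59263235. Capitals mark matches, on either strand, to the MEIS motif TGACAG, the GATA-factor motif AGATAA, the RUNX motif TGTGGT, the PU.1 motif GAGGAAG or the C/EBP motif TTGCNNAA, and no matches overlapped.
P2ry14: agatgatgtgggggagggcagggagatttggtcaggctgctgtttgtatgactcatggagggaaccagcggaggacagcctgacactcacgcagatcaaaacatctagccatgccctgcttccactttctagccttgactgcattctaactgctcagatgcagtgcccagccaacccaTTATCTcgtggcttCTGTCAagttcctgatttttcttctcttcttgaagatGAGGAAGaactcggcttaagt
P2ry13: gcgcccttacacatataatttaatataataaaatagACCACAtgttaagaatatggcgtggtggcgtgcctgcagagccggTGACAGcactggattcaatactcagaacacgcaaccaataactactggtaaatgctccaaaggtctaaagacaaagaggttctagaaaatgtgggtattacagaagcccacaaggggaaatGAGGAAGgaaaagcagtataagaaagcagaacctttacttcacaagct
P2ry12: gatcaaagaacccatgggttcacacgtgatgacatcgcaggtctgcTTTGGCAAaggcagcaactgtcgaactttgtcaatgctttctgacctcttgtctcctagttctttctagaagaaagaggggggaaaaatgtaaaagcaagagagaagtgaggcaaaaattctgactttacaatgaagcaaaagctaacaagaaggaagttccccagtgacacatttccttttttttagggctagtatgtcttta
In P2ry14 the capitals are, in order, a GATA, a MEIS and a PU.1 match, in P2ry13 a RUNX, a MEIS and a PU.1 match, and in P2ry12 a C/EBP match. The same motifs were searched in 300-base windows (250 before and 50 after a start) of the 36 passed receptor genes that have one, 17 higher and 19 lower, and of all 27025 genes in the table. The RUNX motif was in 4 higher and 9 lower genes, or 23.5% and 47.4%, beside 18.9% of all genes. The MEIS motif was in 2 and 7 (11.8% and 36.8%), beside 21.6%. The PU.1 motif was in 3 and 7 (17.6% and 36.8%), beside 15.4%, the C/EBP motif in 1 and 4 (5.88% and 21.1%), beside 12.2%, and the GATA motif in 3 and 2 (17.6% and 10.5%), beside 12.7%. These shares are descriptions of letters in a window, over few genes, some with several windows, and no test was run on them.

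Chemoattractant and lipid inflammatory receptors bring phagocytes to infection. Of 7 genes 5 were tested, with 0 higher, 3 lower and 2 not passed, and the count was the same under hybridization-control scaling. Fpr2, which reads formylated peptides and annexin fragments, gave 18168 and 7271 in leukemic marrow against 40171 and 33042 in mature cells (-1.66, SE 0.44, adjusted p = 0.02). It was bright in all 4 arrays, and leukemic replicate 2 was the lowest. Without that replicate the difference was -1.0 and did not pass, nor did it without mature replicate 1 (-1.52) or mature replicate 2 (-1.80), with an adjusted p between 3.7e-04 and 0.087 over 16 alternatives. C5ar1, the receptor for complement C5a, gave 468 and 71.2 against 1002 and 2628 (-3.0, SE 0.80, adjusted p = 0.022), and a second probe set gave -2.11. It was the least even of the passed genes: the difference was -1.76 without leukemic replicate 2 and -2.31 without mature replicate 2, neither of which passed, and -4.23 without leukemic replicate 1, with an adjusted p of 8.7e-04 to 0.13 over 16 alternatives. Ltb4r1, the high-affinity leukotriene B4 receptor, was lower by a log2 difference of -1.86 (SE 0.36, adjusted p = 0.0063) and kept its call in all 16 alternatives. C3ar1 (-0.18) overlapped between groups with 3 kept probe sets, none of which passed, and Fpr-rs4 (0.03) overlapped as well. Without leukemic replicate 2 or without mature replicate 2, only 1 gene of this group passed. As given above, 4 of 9 neutrophil and 6 of 9 monocyte and macrophage markers were lower in the same arrays, and their part was not tested.

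Prostaglandin E receptors bind 1 ligand and send different signals: Ptger2 and Ptger4 act through Gs, Ptger3 mainly through Gi, and Ptger1 raises calcium. The 3 tested genes all passed, and not in 1 direction. Ptger3 gave 2318 and 1544 in leukemic marrow against 4.86 and 21.6 in mature cells (6.09, SE 0.42, adjusted p = 2.4e-04). Its other probe set was under the filter and gave 0.68. Ptger2 gave 236 and 108 against 1406 and 1108 (-2.84, SE 0.39, adjusted p = 0.0019). Ptger4 gave 1074 and 1060 against 3298 and 2204 (-1.32, SE 0.27, adjusted p = 0.0075). So the Gi-coupled receptor was higher and the Gs-coupled ones lower. The Ptger4 call was lost without leukemic replicate 2, at the same difference of -1.32 (adjusted p 3.8e-04 to 0.058 over 16 alternatives), and its second kept probe set gave -0.80 and did not pass. Without that replicate 1 gene of the group was lower in place of 2. Ptger1 was under the filter, at 1.69 and 20.7 against 58.4 and 40.7. Mast cells also carry Ptger3, and 7 of 8 measured mast cell and basophil markers were higher, with summed signals of 57984 and 69944 in leukemic marrow against 1170 and 1474 in mature cells. The eighth, Tpsb2, was under the filter, and Kit and Gata2 of this list are also on the stem and progenitor list. The part of such cells in the Ptger3 signal was not tested.

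Of the 4 metabolite receptors both that were tested were lower. Ffar2, which senses short-chain fatty acids, gave 909 and 390 in leukemic marrow against 5428 and 4634 in mature cells (-3.04, SE 0.39, adjusted p = 0.0016), and its second probe set gave -2.87. Hcar2, the niacin and butyrate receptor, gave 250 and 158 against 918 and 1906 (-2.64, SE 0.41, adjusted p = 0.0029). Both calls held in all 16 alternatives. Ffar4 and Hcar1 were under the filter.

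Numbered Gpr genes form the largest group, and the number records when a sequence was found, not what it does. Of 61 genes 26 were tested, with 7 higher, 9 lower and 10 not passed. Gpr174, a lysophosphatidylserine receptor of lymphocytes, gave 331 and 341 in leukemic marrow against 21.1 and 22.2 in mature cells (3.22, SE 0.40, adjusted p = 0.0015), and a second probe set gave 3.70. Gpr171, a relative of the P2ry genes beside it, gave 492 and 542 against 79.0 and 71.9 (2.54, SE 0.32, adjusted p = 0.0015). In both genes the replicates lay close together and the groups far apart. Under hybridization-control scaling Gpr171 was at 1.33 and still passed. The other higher genes were smaller in size and lost their call when arrays or scaling changed. Gpr34, another lysophosphatidylserine receptor, was at 1.79, but at 1.91 without leukemic replicate 1, 1.67 without leukemic replicate 2 and 0.73 under hybridization-control scaling, and none of these passed. Gpr155, a lysosomal cholesterol sensor, was at 1.59, but at 1.54 and 1.64 without leukemic replicate 1 or 2 and 0.44 under that scaling, and none of these passed. Gpr89, which despite its name encodes a Golgi anion channel, was at 1.66, but at 1.50 without leukemic replicate 2 and 0.37 under that scaling, and neither passed. Gpr180 (1.12) turned to -0.17 and Gpr19 (0.85, adjusted p = 0.0498) to -0.41 under hybridization-control scaling. Gpr180 did not pass in 5 of 16 alternatives, among them without leukemic replicate 1 (1.15) or 2 (1.09), and Gpr19 in 11 of 15, among them without each of the 4 arrays (0.84 to 0.86). Fewer numbered genes passed in each direction when either leukemic replicate was left out. Under hybridization-control scaling 2 were higher and 16 lower of 29. In that setting 57.5% of all genes passed and 14.4% of those were higher.

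Among the lower numbered genes, Gpr35, an orphan receptor of gut and myeloid cells, gave 58.0 and 55.0 in leukemic marrow against 626 and 484 in mature cells (-2.97, SE 0.34, adjusted p = 0.0011). Gpr84, a receptor for medium-chain fatty acids that myeloid cells raise in inflammation, gave 592 and 229 against 3010 and 2304 (-2.78, SE 0.43, adjusted p = 0.0029). Gpr137b, a lysosomal membrane protein, gave 231 and 224 against 1540 and 1319 (-2.57, SE 0.26, adjusted p = 7.2e-04). Its near-identical copy Gpr137b-ps gave 418 and 320 against 1898 and 1871 (-2.32, SE 0.25, adjusted p = 9.5e-04). These copies can share signal: 4 further probe sets that name both gave -2.31 to -2.17, so which copy was lower is uncertain. Gpr160, an orphan receptor, gave 1241 and 700 against 3450 and 3208 (-1.82, SE 0.31, adjusted p = 0.0039). Gpr65, an acid-sensing receptor of immune cells, was at -1.69 (SE 0.24, adjusted p = 0.0021). Gpr160, Gpr65, Gpr84, Gpr35 and both Gpr137b copies kept their calls in every alternative run that tested them. Gpr35 and the Gpr137b copies were tested in 15 of 16.

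Gpr18 (-1.83), Gpr107 (-1.05) and Gpr137 (-0.95) were lower as well, with fewer alternatives behind them. Gpr18 was at -1.75 without leukemic replicate 1 and -1.90 without leukemic replicate 2, and neither passed (adjusted p 0.0014 to 0.069 over 16 alternatives). Gpr107, a Golgi protein, was at -1.05 without leukemic replicate 1 and -1.04 without leukemic replicate 2, and neither passed, nor did 3 others of its kept probe sets (-0.43 to -0.13). Gpr137 did not pass once leukemic replicate 1 (-1.03), leukemic replicate 2 (-0.87) or, among the mature arrays, replicate 2 (-0.70) was left out. The numbered genes that did not pass were Gpr31b (1.10), Gpr39 (0.95), Gpr132 (0.28), Gpr135 (0.08), Gpr33 (-0.04), Gpr108 (-0.51), Gpr146 (-0.64), Gpr158 (-0.65), Gpr162 (-0.76) and Gpr183 (-0.87). Among them Gpr183, the oxysterol receptor that positions B cells and dendritic cells, gave 186 and 110 against 430 and 176, and its groups overlapped.

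The 57 receptor genes under the filter had mean signals from 3.14 to 47.6 and no array above 113. The threshold fell between Gpr85, at a mean of 47.62, and the lowest kept mean of 47.65. Among them were Adgrb1, Ptafr, Gprc5c, Lpar4, Ffar4, P2ry2, Gpr85 and Ptger1. The 57 log2 differences lay between -1.53 and 1.40 with a median of -0.13. All 5 class C Gprc genes were among them, and no adrenergic receptor gene was read by a probe set with 1 symbol. They were not tested, which does not show that they are silent.

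When each kept probe set was tested on its own, 34.9% of the 27022 probe sets on the array passed. Of the 18 receptor genes with several kept probe sets, 8 had all of them passed in 1 direction (Adgre4, Adgrg1, Adgrg6, Adgrl2, C5ar1, F2r, Ffar2 and Gpr174). In 4 only some passed (Adgrl1, Gpr107, Lpar1 and Ptger4), in 6 none passed, and in 0 were probe sets passed in opposite directions.

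The replicates did not spread alike in both directions. Leukemic replicate 1 was brighter than replicate 2 in 21 of the 25 lower receptor genes, by a median log2 value of 0.45, and in 7 of the 20 higher ones, with a median of -0.09. Over all lower genes of the array the median was 0.34, over all higher genes -0.13 and over all tested genes -0.01. In both sets leukemic replicate 2 lay farther from the mature arrays. The widest gap was in C5ar1 (2.47), followed among the passed genes by Fpr2 (1.32), Gpr84 (1.31) and Ffar2 (1.19). Leaving out leukemic replicate 2 moved Gpr84 from -2.78 to -2.12 and Ffar2 from -3.04 to -2.44, and both still passed. The neutrophil markers showed the same order of the leukemic arrays in their summed signals, and their part was not tested.

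**Figure D4:**
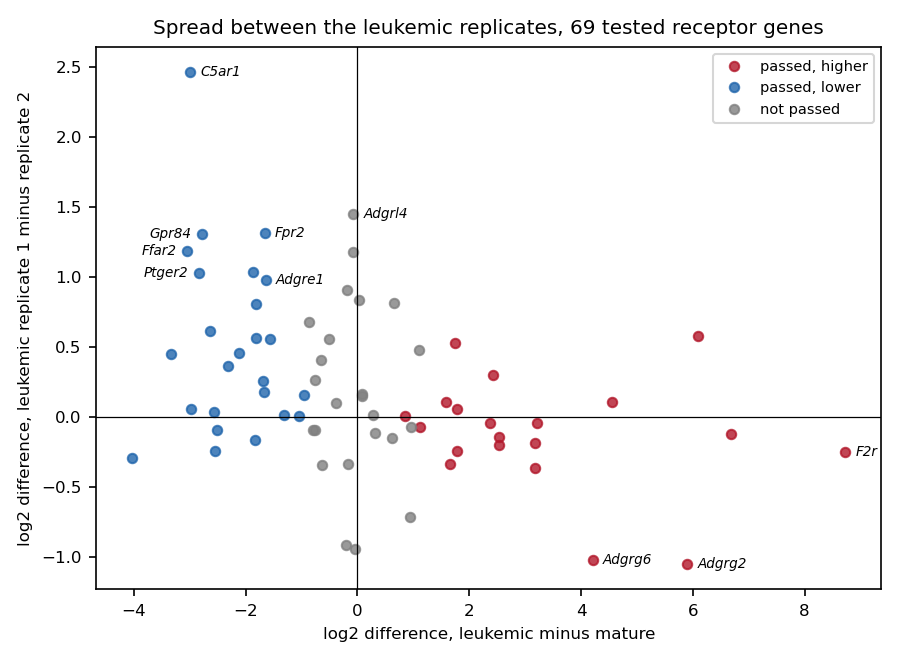
Log2 difference between the leukemic replicates (replicate 1 minus replicate 2, y axis) against the log2 difference between groups (leukemic minus mature, x axis) for the 69 tested receptor genes; red passed higher, blue passed lower and grey did not pass. Most blue points (21 of 25) lie above 0, and C5ar1 lies highest at 2.47.

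The genes that act with the receptors were described from lists chosen by function. Of all genes tested, 43.4% passed, with 27.5% higher and 15.9% lower. Of 18 tested G protein subunit genes 2 were higher and 5 lower, with a median of -0.16. Their passed share was below that of all genes. Gnb4, a beta subunit, was higher by 4.99 (SE 0.29, adjusted p = 1.5e-04) and Gna14, a Gq-class alpha subunit, by 3.44 (SE 0.53, adjusted p = 0.0027). Gng2 (-3.40) and Gng12 (-1.33), both gamma subunits, were lower. The lower count fell without leukemic replicate 2. Under hybridization-control scaling it was 13 of 20, where 57.5% of all genes passed and 14.4% of those were higher. Receptor kinases and arrestins, which mark active receptors and shut them off, had 0 higher and 3 lower of 5 tested, with a median of -1.01. Arrb2, the beta-arrestin gene with the larger difference, gave 5111 and 2467 in leukemic marrow against 20552 and 19797 in mature cells (-2.50, SE 0.36, adjusted p = 0.0022). Grk6 (-1.22) did not pass without leukemic replicate 2 (-0.94), where only 1 of the list was left. The RGS genes, which speed the switching-off of alpha subunits, had 3 higher and 4 lower of 11, with a median of -0.35. Rgs12 (3.50) and Rgs13 (2.64) were higher, Rgs13 not without leukemic replicate 1 (2.25), and Rgs2 (-3.35) and Rgs3 (-2.51) were lower. Under hybridization-control scaling 1 of 10 was higher and 6 were lower, beside the same shares of all genes.

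Second messenger enzymes had 4 higher and 7 lower of 24, with a median of -0.29. That passed share was near the 43.4% of all genes. Adcy6, an adenylyl cyclase, gave 1951 and 2709 in leukemic marrow against 83.1 and 18.9 in mature cells (5.30, SE 0.51, adjusted p = 6.4e-04). Pde4d (3.13), which breaks cyclic AMP down, was higher, while Pde7b (-3.46), a phosphodiesterase of the same kind of substrate, was lower. Pik3r6, a regulatory subunit of the PI3-kinase that G protein beta-gamma pairs switch on, was lower by a log2 difference of -3.58 (SE 0.29, adjusted p = 4.0e-04). Fewer genes of this list were higher when either leukemic replicate was left out. Under hybridization-control scaling 2 were higher and 14 lower, where 57.5% of all genes passed and 14.4% of those were higher. Genes that make, carry or break down ligands had 3 higher and 10 lower of 19, with a median of -1.49 beside 0.28 for all genes. Sphk1, which makes sphingosine 1-phosphate, gave 3483 and 5925 against 9.777 and 15.97 (7.31, SE 0.36, adjusted p = 1.1e-04). Plpp1, a lipid phosphate phosphatase that removes the phosphate of such ligands, gave 1421 and 1913 against 3.35 and 3.41 (6.42, SE 0.36, adjusted p = 1.4e-04). Ptgs2, the inducible cyclooxygenase, gave 4.37 and 1.79 against 1330 and 2005 (-6.44, SE 0.38, adjusted p = 1.5e-04). Alox5, which starts leukotriene synthesis, was lower by a log2 difference of -3.74 (SE 0.49, adjusted p = 0.0017). Fewer ligand genes passed in each direction without leukemic replicate 2. Under hybridization-control scaling 2 were higher and 14 lower, beside the same shares of all genes.

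**Figure D5:**
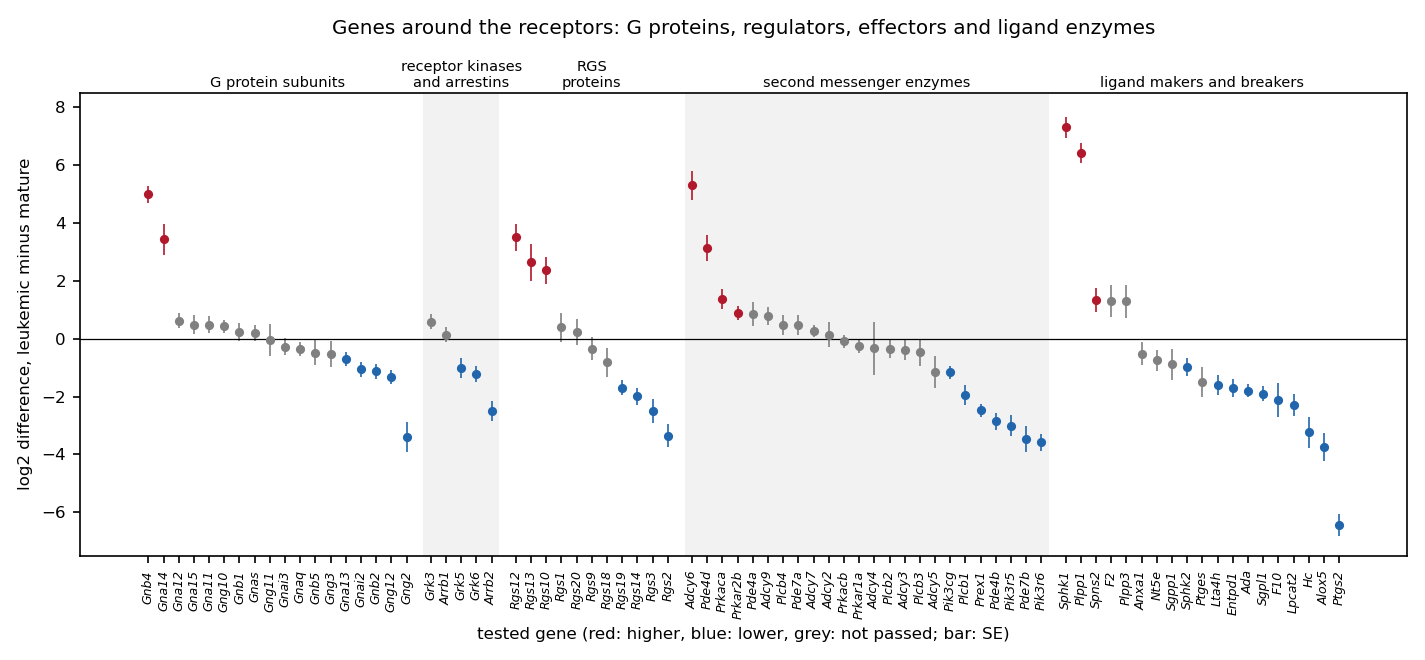
Log2 difference (leukemic minus mature, y axis) of tested genes of 5 functional lists around the receptors (x axis), with bars for the SE; red passed higher, blue passed lower and grey did not pass. Sphk1 stands highest at 7.31 and Ptgs2 lowest at -6.44.

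Some enzymes and receptors of 1 ligand can be set side by side. For prostaglandin E, Ptgs2 (-6.44), Ptger2 (-2.84) and Ptger4 (-1.32) were lower and Ptger3 (6.09) was higher, while the synthase Ptges (-1.49, adjusted p = 0.0514) did not pass. For leukotriene B4, Alox5 (-3.74), the hydrolase Lta4h (-1.60) and the receptor Ltb4r1 (-1.86) were all lower, Lta4h not passing without leukemic replicate 2 (-1.15). For sphingosine 1-phosphate, Sphk1 (7.31) was higher while the lyase Sgpl1 (-1.90) and the receptors S1pr4 (-1.67) and S1pr5 (-2.51) were lower. The other sphingosine kinase gene, Sphk2, was lower (-0.98, adjusted p = 0.042), a call that ended in 7 alternatives, among them without each leukemic array in turn. S1pr1, S1pr2 and S1pr3 did not pass. The exporter Spns2 (1.33) was higher, a call that ended in 7 alternatives.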

How the data were processed

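The members were found by symbol in the platform annotation, read from probe sets with 1 symbol, and the members and gene lists were chosen with earlier results of these data known. The deposited values are linear MAS5 intensities; per the submitters' processing notes, the authors ran MAS5 in GCOS 1.3.0. Detection calls were not used. The 4 arrays are 2 MN1 leukemic and 2 Gr1/Mac1 samples, and their small number limits the precision. Control probe sets were dropped, and then the dimmest 40% of the rest by mean signal. Each gene was read from its brightest kept probe set over the 4 arrays. Log2(signal + 16) was compared with limma 3.58.1 (lmFit, eBayes with a trend, two-sided) in R 4.3.3, with 2 residual degrees of freedom, 6.90 after moderation, and a median SE of 0.33. P-values were adjusted over all tested genes, and scripts were tested on simulated data. Every tested receptor gene was named, and array values were given for passed genes with a difference of at least 2 in size and for the gene of each group whose probe set had the highest mean signal, which also chose the untested genes named. Of each pathway list up to 2 passed genes per direction were named by size, except those set side by side by ligand and the marker genes, chosen after their values were seen. Alternatives were pseudocounts of 1 and 64, other filters, scalings, probe set rules and variance models, a replicate block, each array left out, and, added later, each probe set tested. The labels call the arrays biological replicates. Figures used matplotlib 3.10.9 in Python 3.11.15.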

Additional observations from a re-analysis of the deposited data

How the results depend on the processing

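Of the 45 passed receptor genes, 28 passed under every alternative run that tested them and 42 kept 1 sign there. Some genes were not tested in every run, as filters and probe set rules left them out. The signs that turned were those of Gpr180 (-0.17), Gpr19 (-0.41) and Lpar1 (-0.08), each under scaling to the hybridization controls, where 12 receptor genes were higher. For Lpar1 that scaling also changed which probe set was the brightest, and the one used in the report gave 1.42 there. With 1 array left out, the count of higher receptor genes ran from 13 to 20, that of lower ones from 17 to 23, and that of all changed genes from 2575 to 5441; the low counts came without a leukemic array, where the single array left in that group was taken to vary as the mature ones do. With the replicate block, 19 receptor genes were higher and 25 lower, and 5562 genes changed in all. Arrays of the same number did not deviate together (correlation -0.03 across 12378 genes). This value cannot exclude a shared batch whose effect was small or differed between the groups. Of the 24 genes that did not pass, 11 passed in at least 1 alternative.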
